A study of Solanum lycopersicum with 12 samples.

Results

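Nuclear genes of the photosynthetic apparatus were followed in shoots and roots of tomato seedlings sprayed with piperonylic acid (PA) or a mock solution. The group was defined as a fixed list of 47 locus identifiers for chlorophyll a/b-binding proteins, PsbS, subunits of photosystems I and II, the small subunit of Rubisco, Rubisco activase, and the GAPA and GAPB subunits of chloroplast glyceraldehyde-3-phosphate dehydrogenase. Each identifier was matched to a row of the expression table without its version suffix. Of the 34688 loci in the table, 45 matched, and 44 of these had at least 1 read in any library. Solyc03g005790 and Solyc05g056070 were not analysed here. Solyc02g085950 had 0 reads in each of the 12 libraries, which allows up to 3 reads per library, or 2.28 to 4.69 normalized counts. The list names these classes only as a whole, so the loci are given by identifier and chromosome, and no product is assigned to a single locus. They lay on 11 chromosomes, and 18 of the 47 formed 5 runs of neighbouring identifiers.

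Chlorophyll a/b-binding proteins hold the antenna pigments that pass light energy to the reaction centres, and PsbS takes part in the release of excess energy as heat. Photosystem II oxidises water and photosystem I reduces ferredoxin. Rubisco fixes carbon dioxide in the Calvin cycle, Rubisco activase frees its active sites from bound sugar phosphates, and GAPA and GAPB carry out the reducing step of the cycle. These nuclear genes are known for high, light-dependent expression in leaves and low expression in roots. PA inhibits cinnamate 4-hydroxylase of the phenylpropanoid pathway, which leads to lignin and flavonoids.

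All plants were of the cultivar Moneymaker and were grown under the same conditions, at 24 °C with 16 h of light. They were transplanted 4 days after germination. Leaves were sprayed 7 and 14 days after transplantation with 300 µM PA in 0.1% Tween 20 or with the matching mock solution, and plants were harvested on day 15. The 12 libraries made 4 groups of 3 (shoots and roots of mock-sprayed and of PA-sprayed plants), each from 4 pooled plants, by 3′-end messenger RNA sequencing. Shoot and root were whole organs, so fewer photosynthetic cells and less RNA per cell cannot be told apart. Libraries held 4214169 to 7386030 reads. Mock shoot replicate 1 stood apart from the other shoot libraries at many loci, and the values without it are given beside the results it moves most.

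In mock shoots the photosynthesis loci took a large share of all reads, namely 10.99, 10.0 and 10.05% in mock shoot replicates 1, 2 and 3 (10.3 ± 0.558%, SD, n = 3). Of the 45 loci, 22 were among the 100 most abundant loci of the mock shoots, 19 averaged 10000 normalized counts or more and 39 averaged 1000 or more. Levels of different loci are set side by side here as normalized counts of 3′-end reads, without division by transcript length.

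Solyc08g006930 on chromosome 8 was the most abundant locus of the whole table in mock shoot. Its values were 254171, 184682 and 156849 normalized counts in mock shoot and 177074, 158604 and 165269 in PA shoot. Replicate 1 was the highest mock library, and the groups overlapped. In root its values were 406, 565 and 559 in mock and 418, 1014 and 914 in PA, where replicate 1 lay inside the mock range and the other 2 above it. This locus alone held 2.97% of mock shoot reads and was 2.44 times as high as the next photosynthesis locus.

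That next locus, Solyc03g034220 on chromosome 3, had 94189, 75205 and 75115 normalized counts in mock shoot and 71421, 72621 and 78340 in PA shoot. The groups overlapped through PA replicate 3. Solyc07g047850 on chromosome 7 had 40310, 37416 and 39072 in mock shoot and 33228, 36551 and 34038 in PA shoot. Solyc10g086580 on chromosome 10 had 37623, 35523 and 35937 in mock shoot and 33935, 31019 and 32576 in PA shoot. For both of these every PA library was below every mock library. Solyc08g013670 on chromosome 8 had 43469, 34864 and 29831 in mock shoot and 30604, 35552 and 33973 in PA shoot, with all PA values inside the mock range. Solyc06g074200 on chromosome 6 varied least among the mock libraries, with 21308, 20935 and 21456, and was lower in each PA library, with 18103, 19351 and 19337. Together these 6 loci held 59.2% of the reads of the group in mock shoot. None of the 6 passed the test for PA in shoot, and their estimates ran from -0.22 to -0.10 on the log2 scale. Mock shoot replicate 1 was the highest mock library at each of them except Solyc06g074200. Without it the estimate was -0.021 at Solyc03g034220 and 0.047 at Solyc08g013670, so the lower estimates at these loci rested largely on that library. At Solyc08g006930, where the estimate was -0.22, every PA value lay between those of mock shoot replicates 2 and 3. The lower estimate there also rested largely on replicate 1.

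**Figure D1:**
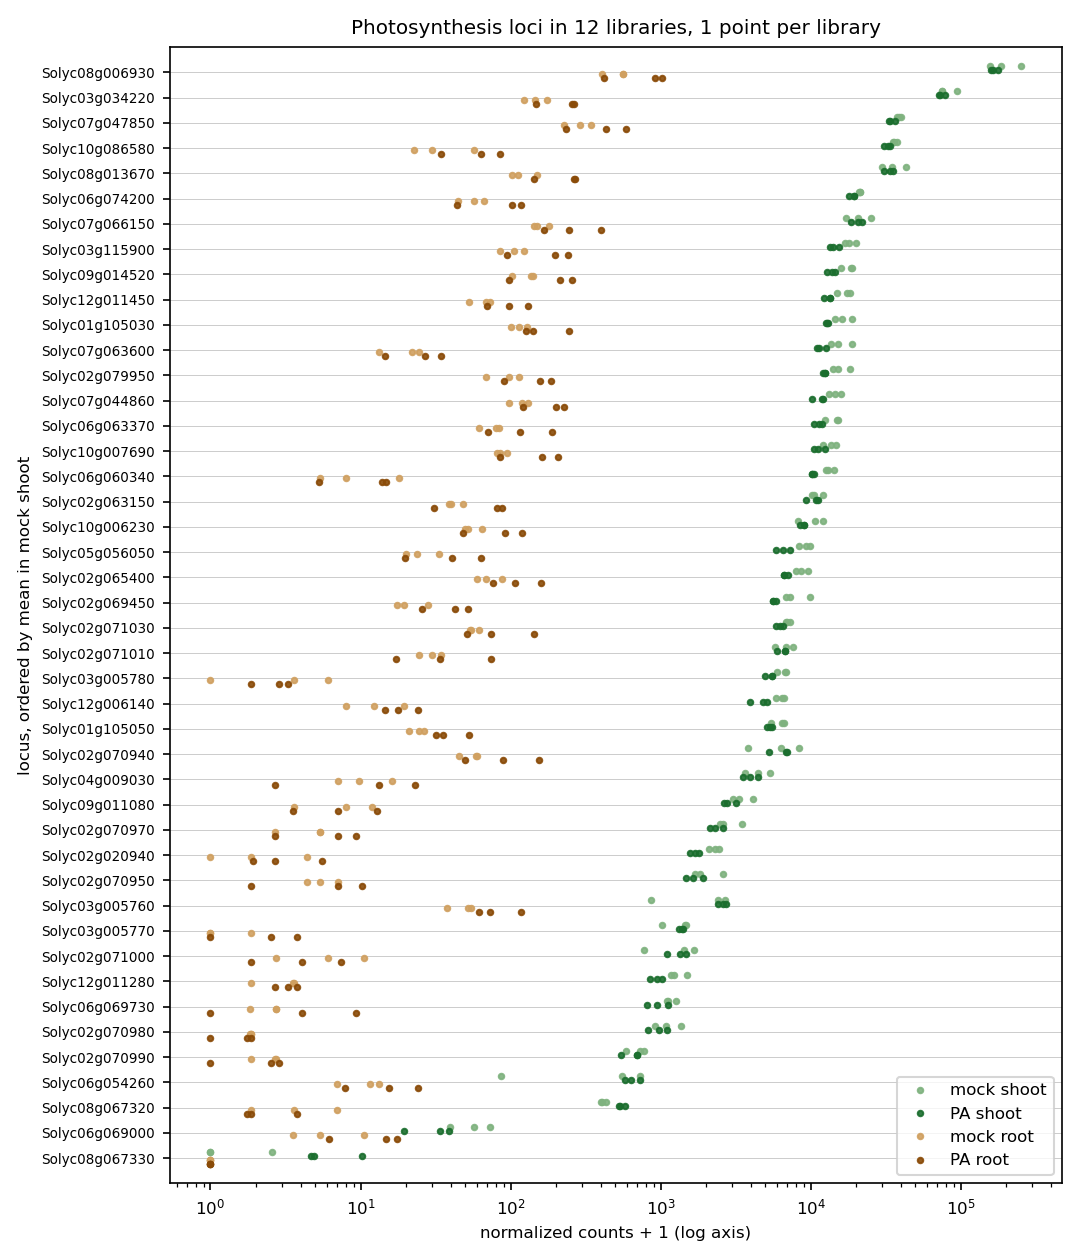
Normalized counts plus 1 (log axis) of the 44 photosynthesis loci with reads, ordered by their mean in mock shoot, with 1 point per library and 1 colour per group. Shoot points lie far to the right of root points at nearly every locus, and Solyc08g006930 at the top reaches 254171 in mock shoot replicate 1.

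The mock libraries were compared first, as a check of the group against the 2 organs. All 43 loci that entered this comparison were lower in mock root than in mock shoot at a limma adjusted p below 0.05. Of these, 15 averaged under 10 normalized counts in mock root and passed the filter on low values through shoot alone, so they had to differ. The other 28 averaged 10 or more in mock root too. Among all 15317 tested loci 66.1% differed between the organs and 32.5% were lower in root. The median log2 difference, root minus shoot, was -8.04 over the 43 photosynthesis loci, those 15 included, and 0.02 over all tested loci. The photosynthesis loci took 0.0408, 0.0545 and 0.0507% of reads in the mock root libraries. For the 29 loci that averaged 10 normalized counts or more in root, the mock root level was 0.0976 to 2.37% of the mock shoot level, with a median of 0.521%. Their levels in the 2 organs ran broadly in the same order, with a Pearson correlation of 0.752 between log2 values across these 29 loci, which are not independent replicates.

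The largest difference was at Solyc03g005780 on chromosome 3, with 6858, 5941 and 6785 normalized counts in mock shoot and 0, 5.07 and 2.61 in mock root. This gave a log2 difference of -11.18 with a standard error of 0.53. Solyc06g060340 on chromosome 6 followed, with 14388, 12653 and 12987 in mock shoot and 4.37, 16.9 and 6.97 in mock root. Solyc02g020940 on chromosome 2 had 2298, 2103 and 2455 in mock shoot and 0, 3.38 and 0.871 in mock root. The log2 differences of the last 2 were -10.51 and -10.14. All 3 averaged under 10 normalized counts in mock root, so they were among the loci that passed the filter through shoot alone. With so few reads in root, all 3 depend on the 1 added before the logarithm.

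The smallest difference was at Solyc06g069000 on chromosome 6, a locus of low level. It had 56.1, 38.7 and 71.8 normalized counts in mock shoot and 4.37, 2.54 and 9.59 in mock root, a log2 difference of -3.23 with a standard error of 0.42. Solyc06g054260 on chromosome 6 had 84.7, 550 and 725 in mock shoot and 10.5, 5.92 and 12.2 in mock root, a log2 difference of -5.00 with a standard error of 0.69. Solyc03g005760 on chromosome 3 had 859, 2429 and 2682 in mock shoot and 36.7, 53.3 and 51.4 in mock root, a log2 difference of -5.22 with a standard error of 0.37. In the last 2 loci mock shoot replicate 1 was far below the other mock shoot libraries, and without it their log2 differences were -5.96 and -5.75. Solyc06g069000 and Solyc06g054260 averaged under 10 normalized counts in mock root and passed the filter through shoot alone.

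In PA-sprayed shoots the photosynthesis loci as a group took a smaller share of reads. The share was 9.05, 8.87 and 9.33% (9.08 ± 0.235%, SD, n = 3), and all 3 values lay below the 3 mock values. Without Solyc08g006930 the shares were 7.44, 7.18 and 7.66% in mock and 6.40, 6.44 and 6.80% in PA, which did not overlap either. Solyc08g006930 itself took 3.55, 2.81 and 2.38% in mock and 2.64, 2.42 and 2.53% in PA, which did overlap. The other shoot-enriched loci, 174 loci outside the group that were at least 64-fold higher in mock shoot than in mock root and averaged 500 normalized counts or more, took 10.6, 10.2 and 10.3% in mock shoot and 9.98, 10.0 and 9.51% in PA shoot. Their share was therefore also lower in each PA library. They were chosen from the mock libraries alone, which favours high values in mock shoot. The ratio of the photosynthesis share to this share was 1.04, 0.979 and 0.974 in mock and 0.907, 0.884 and 0.982 in PA, and these overlapped.

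**Figure D2:**
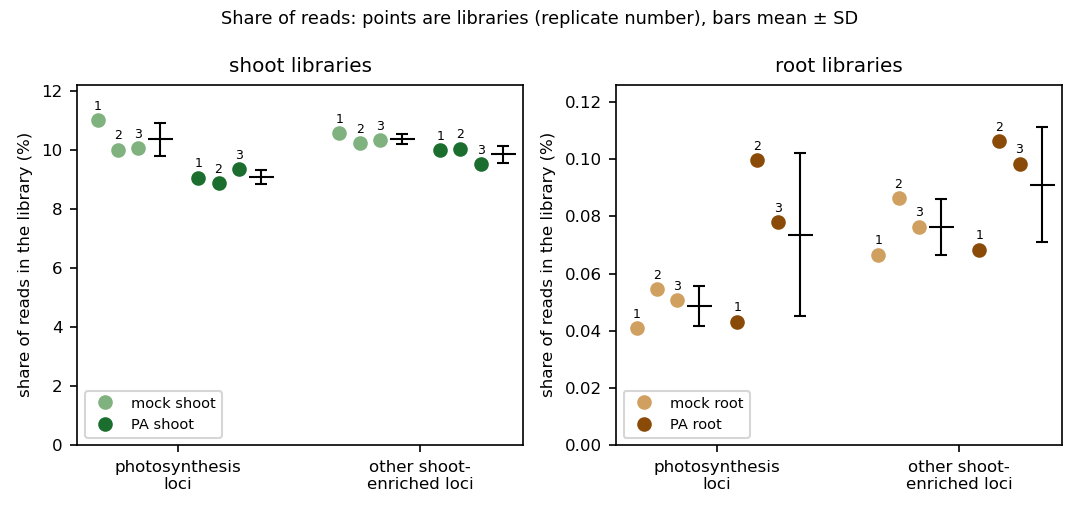
Share of a library's reads (percent) taken by the photosynthesis loci and by 174 other shoot-enriched loci, in shoot (left) and root (right, on a smaller scale). Points are libraries marked with their replicate number and bars are the mean ± SD of 3. In shoot the photosynthesis share was 9.997 to 10.99% in mock and 8.87 to 9.33% in PA, and in root PA replicates 2 and 3 lie above the mock libraries for both sets.

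Taken locus by locus, none of the 43 tested photosynthesis loci passed a limma adjusted p of 0.05 for PA against mock in shoot, where 1.58% of all 14505 tested loci did. That share ran from 0.428 to 2.63% when 1 library was left out. The lowest adjusted p was 0.0572. At an unadjusted p below 0.05 there were 20 loci, 19 of them lower and 1 higher with PA, against 14.1% of all tested loci in both directions. This number was 13 to 25 without 1 library, and 0 when all 12 libraries shared 1 estimate of the spread. The estimate was lower with PA at 37 of the 43, against 53.0% of all tested loci. At 21 of the 43 every PA library lay below every mock library, against 11.6% of all tested loci. The median log2 fold change was -0.25, or 0.840-fold, against -0.02 over all tested loci. On whole reads, the edgeR quasi-likelihood test called 1 locus and DESeq2 called 12, 11 lower and 1 higher, each at an adjusted p below 0.05. Over all tested loci edgeR called 1.63% and DESeq2 2.54%.

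Other abundant and organ-enriched loci are given beside this shift. Over the 1087 other loci that averaged 1000 normalized counts or more in shoot, the median log2 fold change was -0.03, 25.4% had an unadjusted p below 0.05 and 19.9% were lower with no overlap. Over the 174 other shoot-enriched loci the median was -0.15, 43.1% had an unadjusted p below 0.05 and 40.2% were lower with no overlap. Over the 43 photosynthesis loci these shares were 46.5 and 48.8%. The estimate was lower at 137 of the 174, and limma called 8 lower and 1 higher. The 98 root-enriched loci outside the group, chosen by the same limits, took 0.0134 to 0.0158% of reads in mock shoot libraries against 0.0168 to 0.0233% after PA. Being chosen from the mock libraries, they tend to be low in mock shoot. The part of these loci in the result was not tested.

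Solyc02g020940 had the lowest p in shoot. It had 2298, 2103 and 2455 normalized counts in mock and 1707, 1562 and 1800 in PA, and the groups did not overlap. The log2 fold change was -0.44 with a standard error of 0.10 and a 95% confidence interval of -0.66 to -0.21 (limma adjusted p = 0.0572). Solyc05g056050 on chromosome 5 had 9912, 8329 and 9272 in mock and 7241, 5916 and 6565 in PA, again with no overlap. Its log2 fold change was -0.48 with a standard error of 0.12 and an interval of -0.74 to -0.22 (limma adjusted p = 0.0738). By estimate the PA level was 0.740 and 0.716 of the mock level at these loci, and neither passed.

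Solyc08g067320 on chromosome 8 went the other way. It had 431, 406 and 401 normalized counts in mock shoot and 535, 579 and 531 in PA shoot, and it was the only tested locus of the group with all PA libraries above all mock libraries. The log2 fold change was 0.41 with a standard error of 0.10 and an interval of 0.19 to 0.63 (limma adjusted p = 0.0685). Its neighbour in the list, Solyc08g067330, was barely detected, with 0, 0 and 1.56 normalized counts in mock shoot and 3.68, 9.23 and 3.88 in PA shoot, 16 reads in all. A locus outside the list that lies close by in the identifier order, Solyc08g067360.3, had a log2 fold change of 2.80 with PA, standard error 0.30 (limma adjusted p = 0.000625), the only one of 33 tested neighbours of the 5 runs that passed in shoot.

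**Figure D3:**
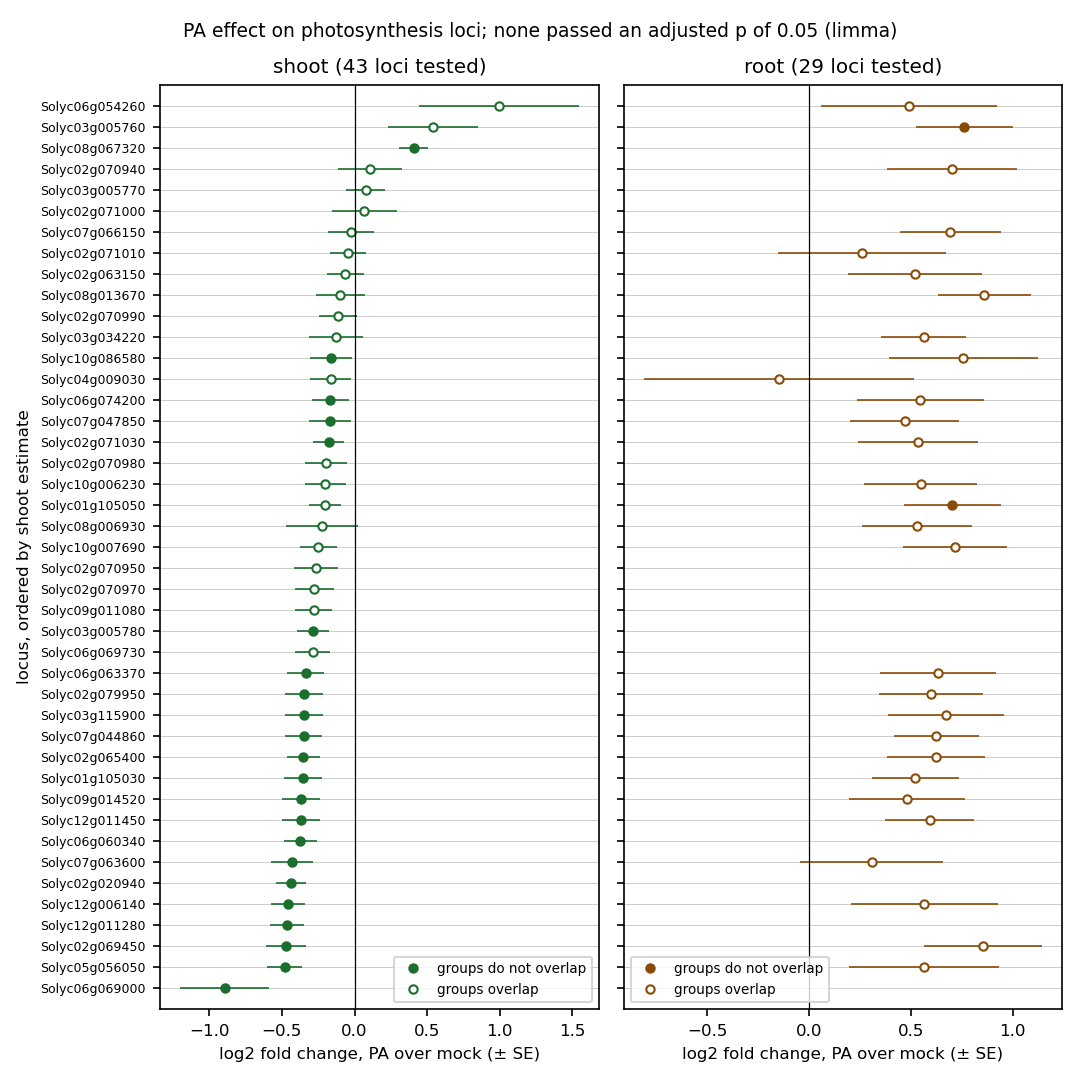
Log2 fold change of PA over mock with its standard error for the photosynthesis loci, in shoot (left, 43 loci) and root (right, 29 loci), both in the order of the shoot estimate. Filled points mark loci whose mock and PA libraries do not overlap. In shoot 37 estimates lie left of 0 and in root 28 lie right of 0, and no locus passed a limma adjusted p of 0.05.

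Closely related copies can share reads, and the sources used here do not say how such reads were counted, so the runs were also summed. The run of 8 loci on chromosome 2 that starts at Solyc02g070940 had 23231, 27596 and 33194 normalized counts in mock shoot and 25510, 24871 and 27769 in PA shoot, with all PA sums inside the mock range. The 2 loci that start at Solyc01g105030 on chromosome 1 summed to 25393, 20119 and 22526 in mock and 18502, 17986 and 18119 in PA, with no overlap. The 3 loci measured in the run of Solyc03g005760 on chromosome 3 summed to 8744, 9835 and 10948 in mock and 8715, 9563 and 9687 in PA, which overlapped. The pair on chromosome 8 summed to 431, 406 and 403 in mock and 538, 588 and 534 in PA, higher in each PA library. Among the 15 tested loci in runs 4 were lower with no overlap, and among the 28 single loci 17 were. Most loci with version suffix 1, which are set apart below, lie in runs, chiefly the chromosome 2 run. The split by runs and the split by suffix are therefore not separate patterns.

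Mock shoot replicate 1 did not deviate in the same way at all photosynthesis loci. It was the lowest of the 3 mock shoot libraries at 8 of the 10 tested loci whose identifier in the table ends in version suffix 1, and the highest at 23 of the 33 with another suffix. Solyc06g054260 and Solyc03g005760, whose values are given above, were among the former. Outside the group, replicate 1 was the lowest at 54.2% of 1197 tested loci with suffix 1 and at 31.7% of 13265 with another suffix. With PA in shoot, the 10 loci with suffix 1 had a median log2 fold change of -0.04, and all 10 overlapped. The 33 others had a median of -0.29, and 21 of them were lower with no overlap. Without mock shoot replicate 1 the medians were -0.18 and -0.28. Limma then called 4 of the 43 loci, against 2.63% of all tested loci. Solyc02g020940, Solyc05g056050 and Solyc12g006140 were lower and Solyc08g067320 was higher, and the estimate was negative at 39. Without mock shoot replicate 3 it called Solyc12g011280 alone, which was lower, against 1.97% of all tested loci.

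**Figure D4:**
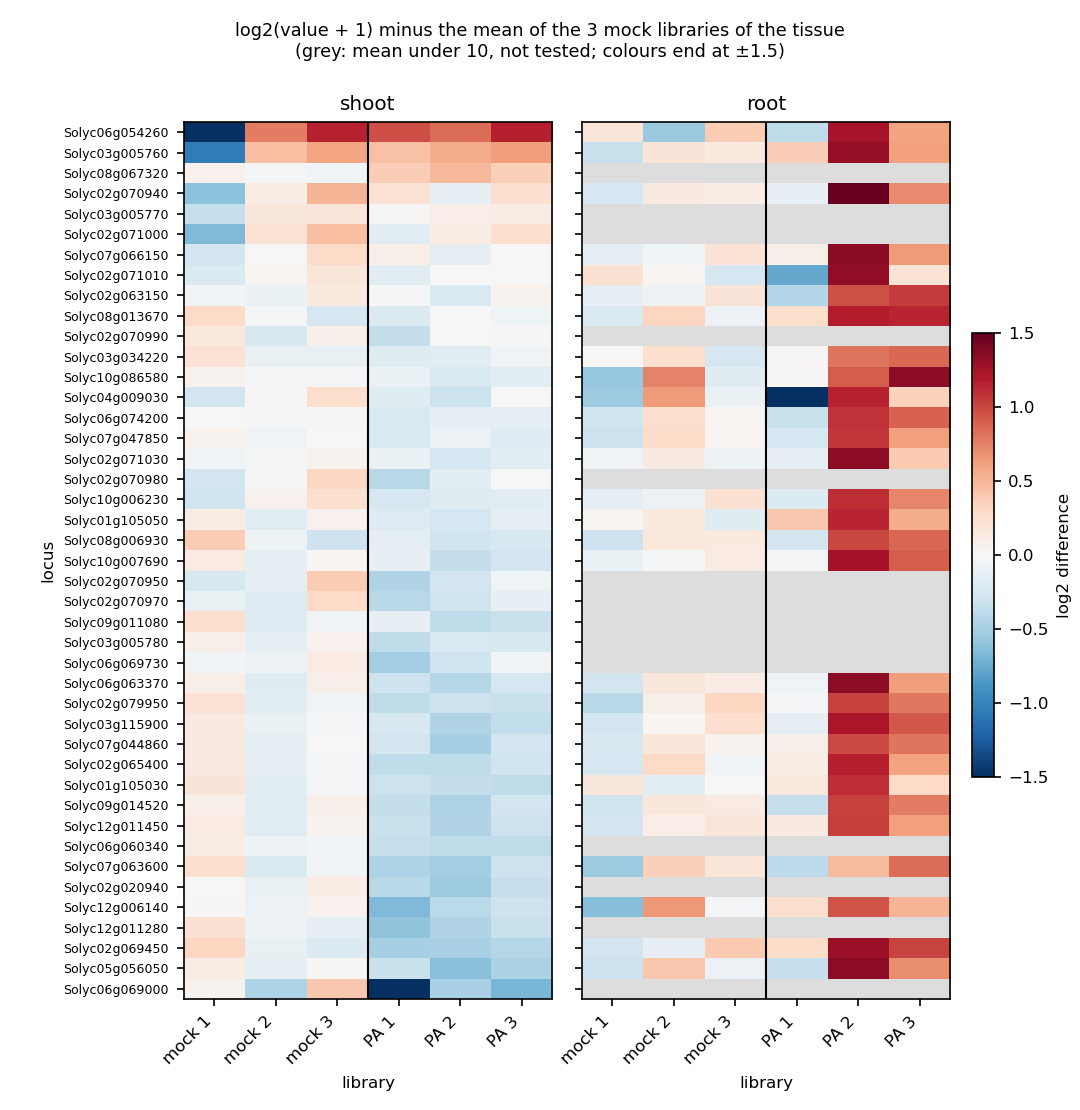
Log2(normalized count + 1) of each photosynthesis locus in each library minus the mean of the 3 mock libraries of the same organ, with rows in the order of the shoot estimate. Red is higher, blue is lower, colours end at a difference of 1.5, and grey rows had a mean under 10. Mock shoot replicate 1 is blue at the top rows, and PA root replicates 2 and 3 are red at nearly all rows while PA root replicate 1 is not.

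In roots, the question was whether a spray on the leaves went with a difference in these low transcripts. PA root libraries 1, 2 and 3 had 0.0431, 0.0996 and 0.0780% of reads in the photosynthesis loci, so replicate 1 lay inside the mock range of 0.0408 to 0.0545% and the other 2 above it. Means were 0.0486 ± 0.00704% in mock and 0.0736 ± 0.0285% in PA (SD, n = 3 each). Of the 45 loci, 29 passed the filter of a mean of 10 normalized counts and were tested. None passed a limma adjusted p of 0.05, where 1.58% of all 14645 tested loci did. That share ran from 0.0956 to 3.53% when 1 library was left out. The lowest adjusted p was 0.0914. At an unadjusted p below 0.05 there were 14, all higher with PA, against 12.7% of all tested loci in both directions. This number was 2 of 27 without PA root replicate 2 and 26 of 30 without PA root replicate 1. The estimate was higher at 28 of the 29, against 56.3% of all tested loci. Every PA library lay above every mock library at 2 of the 29 (6.90%), Solyc03g005760 and Solyc01g105050, near the share of 10.2% over all tested loci. The median log2 fold change was 0.56, or 1.48-fold, against 0.03 over all tested loci. On whole reads edgeR called 0 and DESeq2 called 2, both higher, against 1.54 and 2.66% of all tested loci.

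The size of the median root estimate depended on single PA root libraries. Its direction did not turn when 1 library was left out, but every such fit kept PA root replicate 2 or 3. The median log2 difference from the mock root mean over the 29 loci was -0.07 in PA root replicate 1, 1.14 in replicate 2 and 0.71 in replicate 3, and replicate 1 was the lowest of the 3 PA libraries at all 29. All 29 loci were above their mock mean in replicates 2 and 3, and 12 were in replicate 1. Without PA root replicate 1 limma called 5 of 30 loci, all higher with PA, against 0.539% of all tested loci. These were Solyc03g115900, Solyc07g044860, Solyc08g006930, Solyc08g013670 and Solyc10g007690. The median was then 0.92, and it was 0.36 without PA root replicate 2.

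The other shoot-enriched loci moved with the same libraries. They took 0.0667, 0.0863 and 0.0764% of reads in mock root and 0.0683, 0.106 and 0.0985% in PA root. The ratio of the photosynthesis share to theirs was 0.612, 0.631 and 0.663 in mock root and 0.632, 0.936 and 0.792 in PA root. Among the 76 of them tested in root the median log2 fold change was 0.28, 59 estimates were higher and limma called 0, with 14 at an unadjusted p below 0.05. The choice of these loci from mock libraries favours low values in mock root. Their part in the root result was not tested.

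Solyc08g013670 had the lowest p in root. It had 101, 148 and 112 normalized counts in mock root and 143, 268 and 263 in PA root, where PA replicate 1 lay below mock replicate 2. The log2 fold change was 0.86 with a standard error of 0.23 and a 95% confidence interval of 0.36 to 1.36 (limma adjusted p = 0.0914). Solyc03g005760 had 36.7, 53.3 and 51.4 in mock root and 60.6, 116 and 71.6 in PA root, with no overlap. Its log2 fold change was 0.76 with a standard error of 0.24 and an interval of 0.24 to 1.29 (limma adjusted p = 0.163). Solyc07g044860 on chromosome 7 had 96.2, 129 and 118 in mock root and 120, 226 and 199 in PA root, which overlapped. Its log2 fold change was 0.62 with a standard error of 0.21 and an interval of 0.17 to 1.08 (limma adjusted p = 0.198). In shoot the same locus was lower in every PA library, with 15869, 13163 and 14629 in mock and 11978, 10240 and 12003 in PA.

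The 16 matched loci below the filter in root had 0 to 70 reads each over the 6 root libraries. Solyc06g060340, with 70 reads, had 4.37, 16.9 and 6.97 normalized counts in mock root and 4.27, 13.8 and 12.9 in PA root, which overlapped. Solyc06g069000, with 61 reads, had 4.37, 2.54 and 9.59 in mock root and 5.12, 16.6 and 13.7 in PA root, which also overlapped. With no filter on low values, 43 loci were tested in root, 15 had an unadjusted p below 0.05 and limma called 0.

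Whether the PA effect differed between the organs was tested as an interaction over all 12 libraries. The labels do not say whether shoot and root libraries of the same number came from the same plants. The main fit held no term for this, here or in the comparison of mock root with mock shoot. None of the 29 photosynthesis loci tested passed a limma adjusted p of 0.05, where 0.377% of all 13010 tested loci did. That share ran from 0.115 to 1.23% when 1 library was left out. The lowest adjusted p was 0.0865. At an unadjusted p below 0.05 there were 18, all with the higher PA effect in root, against 12.1% of all tested loci in both directions. This number was 12 of 27 without PA root replicate 2 and 28 of 30 without PA root replicate 1. The root effect was higher by estimate at 28 of the 29, against 55.3% of all tested loci. The median difference of effects was 0.85 on the log2 scale, and 0.04 over all tested loci. Over the 76 other shoot-enriched loci the root effect was higher at 68, the median was 0.40 and 22 had an unadjusted p below 0.05. The estimate was lower in shoot and higher in root at 25 of the 29 loci, against 29.0% of all tested loci, and at 0 of them were the libraries apart in both organs in this way, against 111 of the 13010. On whole reads edgeR called 0 and DESeq2 called 11, all with the higher effect in root, against 0.584 and 1.36% of all tested loci. Without PA root replicate 1 limma called 17 of 30, against 0.568% of all tested loci. Without mock root replicate 3 it called 1 of 30, Solyc02g069450, against 0.338%. Of 27 tested neighbours of the runs outside the list, Solyc01g105010.3 alone passed, with a difference of effects of 0.77 (limma adjusted p = 0.0266).

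Solyc02g069450 on chromosome 2 had the lowest p. It had 9872, 7285 and 6847 normalized counts in mock shoot and 5589, 5646 and 5868 in PA shoot, with no overlap. In root it had 16.6, 18.6 and 27.01 in mock and 24.8, 50.7 and 41.9 in PA, where PA replicate 1 lay inside the mock range. The root effect was higher than the shoot effect by 1.32 in log2 units (standard error 0.31), with a 95% confidence interval of 0.66 to 1.98 (limma adjusted p = 0.0865).

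Solyc01g105050 on chromosome 1 had 6613, 5478 and 6402 in mock shoot and 5357, 5114 and 5544 in PA shoot, which overlapped. In root it had 23.6, 25.4 and 20.0 in mock and 30.7, 51.6 and 34.3 in PA, with no overlap. The difference of effects was 0.91 with a standard error of 0.22 and an interval of 0.44 to 1.37 (limma adjusted p = 0.0911). Solyc12g011450 on chromosome 12 had 18374, 14983 and 17472 in mock shoot and 13412, 12311 and 13499 in PA shoot, with no overlap. In root it had 51.6, 67.7 and 71.5 in mock and 69.2, 130 and 96.7 in PA, which overlapped. The difference of effects was 0.96 with a standard error of 0.25 and an interval of 0.43 to 1.49 (limma adjusted p = 0.120).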

How the data were processed

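The deposited table holds a normalized signal, called normalized counts by the authors, for 34688 loci in 12 libraries, and every column was matched to a sample by its title or description. The submitters' processing notes list STAR 2.6.1d, Trimmomatic 0.38, FastQC 0.11.8 and an unversioned DESeq2. Not given in the sources used here are the genome build, the annotation, the read counter and the treatment of reads shared by similar loci. In every column 100% of values up to 2000 reads came out whole, to within 0.01, when divided by what 1 read was worth, so whole reads were recovered.

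Groups were compared on log2(value + 1) with limma 3.58.1 in R 4.3.3, with an intensity trend, two-sided, over all loci with a mean of at least 10 in the libraries compared, or in each organ for the interaction, with Benjamini-Hochberg adjustment over all tested loci and a threshold of 0.05. The added 1 makes log2 fold changes of low loci too small. DESeq2 1.42.0 and the quasi-likelihood test of edgeR 4.0.16 were run on the whole reads. Plots come from matplotlib 3.10.9 (Python 3.11.15).

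The photosynthesis list and the sets set beside it were chosen with earlier results of these data known. Values in every library are given for the 6 loci of highest mean in mock shoot, the 3 of lowest p for PA in shoot, in root and in the interaction, and the 3 smallest and 3 largest organ differences. Loci in runs have identifier numbers within 50 of each other. Beyond that rule, loci are named where few were called under an alternative or where 1 library stood apart.

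Samples are pools of 4 plants whose separation is not described, so p-values cover only the spread between these samples. No 2 replicates agreed within sampling noise, with a chi-square per degree of freedom of 3.84 to 9.92. Limits set by 0 reads cover counting error only. The RefSeq table of assembly SLM_r2.1, with 41476 rows, held 0 of the 47 identifiers, so no product, coordinate or sequence is given for a locus. Alternatives were pseudocounts of 0.5 and 5, a filter of 50 or none, quantile scaling, scaling to equal totals of reads outside the list, edgeR, DESeq2, a replicate number as covariate, sample quality weights, one fit of all 12 libraries, and leaving out each library in turn.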

Additional observations from a re-analysis of the deposited data

How the results depend on the processing

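The count of photosynthesis loci called with PA in shoot, 0 by limma, was 2 with quantile scaling, 1 with edgeR, 12 with DESeq2 and 1 with sample quality weights, where 1.68, 1.63, 2.54 and 2.55% of all tested loci were called, and 0 to 4 without 1 library. In root it was 2 with DESeq2 and 1 with all 12 libraries in one fit, against 2.66 and 1.24% of all loci, and 0 to 5 without 1 library. The interaction gave 1 with quantile scaling and 11 with DESeq2, against 0.546 and 1.36%, and 0 to 17 without 1 library. With the replicate block, limma called 3 in shoot, 3 in root and 0 in the interaction, against 2.59, 3.01 and 0.846%. At an unadjusted p below 0.05 there were then 25, 23 and 22 photosynthesis loci, against 20, 14 and 18 without the block. Same-numbered mock and PA libraries correlated at 0.103, 0.0894 and 0.0335 in shoot and 0.109, -0.0706 and 0.0673 in root. Each mock library except mock root replicate 2 correlated best with the PA library of its own number. PA shoot replicate 3 and PA root replicates 2 and 3 did not correlate best with the mock library of their number. The numbers were not taken as pairs. The counts under the other pseudocounts and filters stayed at 0. All of the 43 organ differences passed in every alternative except a filter of 50, which tested and called 42. Quantile scaling and equal totals moved the median organ difference of all tested loci from 0.02 to 0.15 and 0.20 in log2 units. The medians of the photosynthesis loci kept their direction in every alternative run, from -0.33 to -0.21 in shoot and from 0.36 to 0.92 in root without 1 library. Of 686 alternative values of 38 named results, 652 kept direction and side of the threshold, 32 newly passed it, 1 became 0 and 1 turned. The last was the shoot estimate of Solyc08g013670, which was -0.10 with all libraries and ran from -0.22 to 0.047 without 1 library. It turned without mock shoot replicate 1, the highest mock shoot library at this locus. Why that library stood apart was not tested. Quantile scaling gives the most abundant locus of each library the same value, so it set the shoot estimate of Solyc08g006930 to 0. Loci near 0 reads in root are limited by depth.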
